A study of Mus musculus with 20 samples.

Results

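Stem cell lines labelled PGC-ESC were compared with lines labelled ESC, with the Bax knockout on both sides. These 7 libraries, called the PGC-ESC lines and the ESC lines where no other genotype is named, were chosen by their labels alone: PGC-ESC BaxKO 1 to 5 (n = 5) and ESC BaxKO 1 and 2 (n = 2), of 20 mouse libraries in the series. All 7 carry the genotype BaxKO and the mixed strain label C57Bl6J/129SvEvRoEp, so the labels of these groups differ in cell type only. The name PGC-ESC refers to primordial germ cells (PGCs), the embryonic precursors of sperm and eggs. The series asks about the potency of PGCs injected into early embryos, and the derivation of the PGC-ESC lines is not given in the sources used. The ESC BaxKO lines were derived earlier than the PGC-ESC lines, so origin and time of derivation cannot be told apart. A further 3 groups are used for reference: a Bax heterozygous ESC line with the same strain label (ESC BaxHet, n = 1), wildtype C57Bl6J lines from host embryos (ESC Host, n = 4), and C57Bl6J PGC-ESC lines without Puma and Noxa (PGC-ESC DKO, n = 3). The ESC culture protocol used gelatin, N2B27 medium, LIF, the GSK3 inhibitor CHIR99021 and the MEK inhibitor PD0325901. Poly(A) RNA was sequenced in bulk, so fewer cells of a type and less RNA per cell cannot be told apart. The labels name each library as a line, and nothing says that cultures were repeated. P-values thus measure the spread between libraries, estimated over all 20 in the series.

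Mouse ESCs held in LIF with both inhibitors stay close to the pre-implantation epiblast, with low DNA methylation and, in female lines, both X chromosomes active. PGCs express many of the same pluripotency factors, and during migration and colonisation of the gonad they erase most DNA methylation, including the parental marks at imprinted genes. Bax opens the mitochondrial outer membrane in apoptosis, and its loss lets cells survive that would otherwise die, germ cells outside their niche among them.

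The 7 libraries held 16297378 to 32714219 counts. Bax (chromosome 7, 45461697 to 45466898, GRCm38) was at 1.64 and 2.42 CPM (counts scaled to a common library size) in the ESC lines and at 1.77 to 2.27 CPM in the PGC-ESC lines, against 105.5 CPM in ESC BaxHet and 383 ± 168 CPM (mean ± SD, n = 4) in ESC Host. EGFP, a reporter in the count table, was at 3048 and 3416 CPM in the ESC lines and 2917 to 3369 CPM in the PGC-ESC lines. Pairs of lines within a group differed by a chi-square of 7.13 to 72.3 per gene, where counting error alone gives about 1, so no library was a second deposit of another. The lines were not alike in their sex chromosomes. The mean of 4 Y-linked genes was 61.1 and 47.0 CPM in the ESC lines and 53.5 and 53 CPM in PGC-ESC lines 2 and 5, and 0 in PGC-ESC lines 1, 3 and 4 and in ESC BaxHet. Rn45s, the ribosomal RNA precursor, was at 2044 to 5106 CPM per library total in the PGC-ESC lines and 3263 CPM in ESC BaxKO 1, but at 18390 CPM in ESC BaxKO 2.

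Of 16363 genes tested, edgeR called 6 (0.0367%) at an adjusted p under 0.05. Wdfy1 was higher in the PGC-ESC lines (1 gene, 0.00611%), and Pdpn, Cdkn1c, Tes, Acsm4 and Ubd were lower (5 genes, 0.0306%). Changes are log2 fold changes ± standard error, PGC-ESC BaxKO minus ESC BaxKO, and the adjusted p was 0.0487 for all 6. In 4 of them every PGC-ESC line lay on one side of both ESC lines, as in 5.63% (higher) and 6.46% (lower) of all tested genes. In Acsm4 and Ubd the ESC side rested on 1 line. For 56.2% of tested genes the 95% interval of the difference excluded a 2-fold change.

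Cdkn1c (chromosome 7, 143458339 to 143461050) encodes a cyclin-dependent kinase inhibitor that slows the cell cycle and is expressed from the maternal allele. It was at 9.67 and 9.17 CPM in ESC lines 1 and 2, and at 1.06, 2.63, 1.41, 1.77 and 2.75 CPM in PGC-ESC lines 1 to 5. The groups did not overlap, and lines 2 and 5, those with Y-linked reads, were the highest of the PGC-ESC lines. The gene fell by 2.27 ± 0.37 on the log2 scale. ESC BaxHet had 9.90 CPM, at the level of the ESC BaxKO lines, and ESC Host 8.56 ± 4.08 CPM (n = 4).

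Pdpn (chromosome 4, 143267431 to 143299564) encodes podoplanin, a membrane glycoprotein that binds ERM proteins and thereby the actin cortex. It was at 20.6 and 24.6 CPM in ESC lines 1 and 2, and at 9.19, 11.95, 10.7, 9.78 and 9.64 CPM in PGC-ESC lines 1 to 5. The 5 PGC-ESC lines lay close together, with or without Y-linked reads, and below both ESC lines (-1.14 ± 0.18). ESC BaxHet, an embryo-derived line, had 9.81 CPM and so stood with the PGC-ESC lines.

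Tes (chromosome 6, 17065149 to 17105828) encodes testin, a LIM-domain protein of focal adhesions. Its levels were 90.8 and 85.5 CPM in the ESC lines and 43.6, 58.7, 47.5, 44.2 and 43.8 CPM in PGC-ESC lines 1 to 5. Line 2 stood above the other PGC-ESC lines but well below both ESC lines (-0.89 ± 0.15). Here too ESC BaxHet (42.7 CPM) stood with the PGC-ESC lines.

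Wdfy1 (chromosome 1, 79702262 to 79776143) encodes an endosomal FYVE-domain protein that helps toll-like receptors recruit their adaptor. It was at 26.5 and 24.9 CPM in the ESC lines and at 58.9, 53.1, 57.7, 57.6 and 43.0 CPM in PGC-ESC lines 1 to 5. All PGC-ESC lines were above both ESC lines, line 5 least so (1.07 ± 0.17), and ESC BaxHet was at 54.0 CPM, within the PGC-ESC range. Wdfy1 overlaps Mrpl44 on the other strand, which averaged 34.2 CPM over the 7 libraries compared. Whether the counts used strand is not given in the sources used, so reads of that pair cannot be told apart. 

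**Figure D1:**
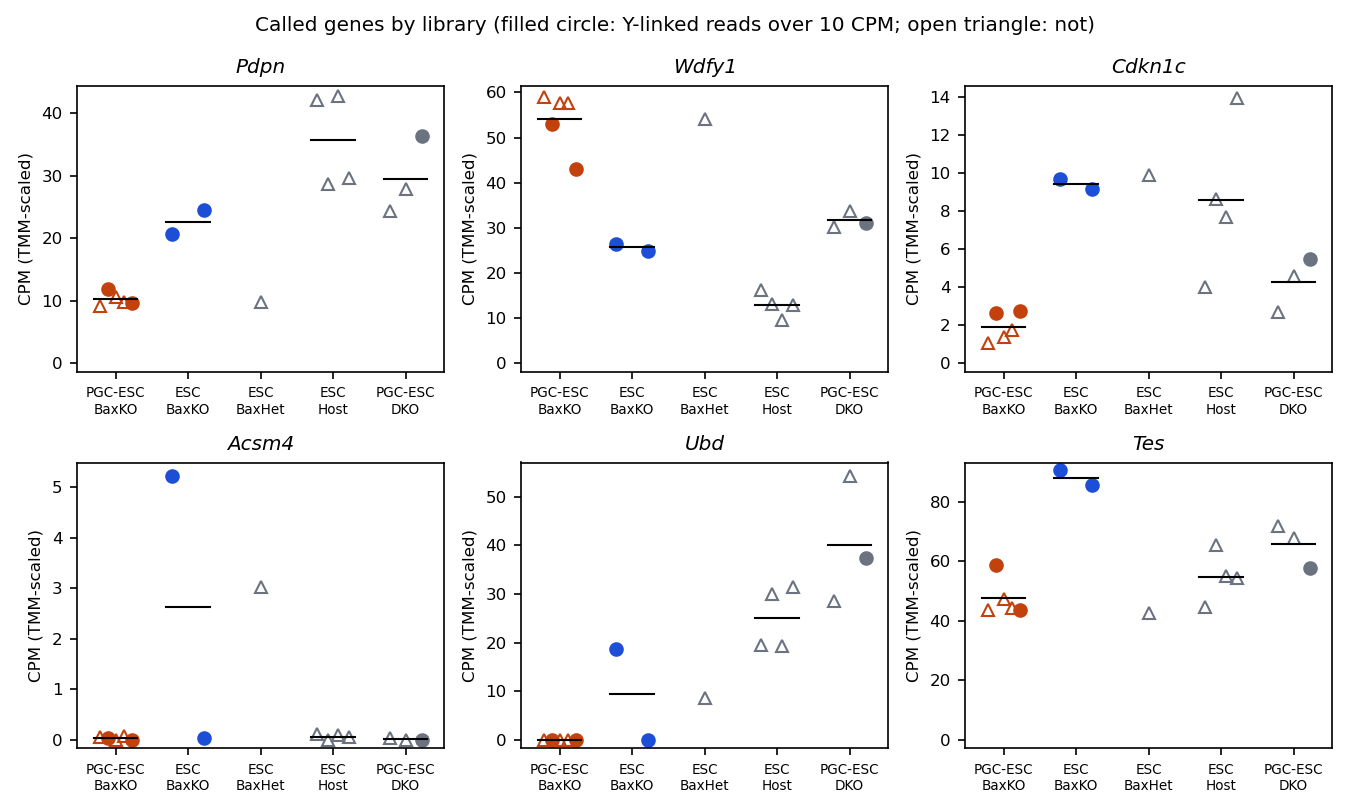
Levels of the 6 called genes by library (CPM, linear axes from 0), with the group mean as a bar; filled circles are libraries with Y-linked reads above 10 CPM and open triangles those without. Pdpn, Tes, Wdfy1 and Cdkn1c separate the 5 PGC-ESC BaxKO lines from both ESC BaxKO lines, while the mean of Ubd and Acsm4 in the ESC lines comes from 1 line, and the single ESC BaxHet line lies with PGC-ESC BaxKO for Pdpn, Tes and Wdfy1.

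The other called genes were of another kind, on in 1 ESC line and at or near 0 elsewhere among the BaxKO lines. Ubd (chromosome 17, 37193892 to 37196095), a ubiquitin-like modifier induced by inflammatory cytokines, had 529 counts in ESC BaxKO 1 and 0 in ESC BaxKO 2 and in all 5 PGC-ESC BaxKO libraries. Against a floor of 3 counts over the PGC-ESC group it was at least 417.1-fold lower there. Acsm4 (chromosome 7, 119690026 to 119714565), a mitochondrial medium-chain acyl-CoA synthetase, had 147 and 1 counts in ESC lines 1 and 2 and 1, 1, 0, 2 and 0 in PGC-ESC lines 1 to 5. Both genes were also on in ESC BaxHet, with 288 counts of Ubd and 101 of Acsm4. Without ESC BaxKO 1 neither was called: Ubd had no read left on either side (adjusted p 1), and Acsm4 stood at -0.41 (adjusted p 0.96). Counting intervals and floors cover counting error only.

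Of the 6 called genes, 4 had a promoter in the RefSeq table for GRCm38.p6, given as 250 bases before to 50 after the start. The promoters of Ubd and Acsm4, which among the Bax lines were on in ESC BaxKO 1 and ESC BaxHet, are shown beside that of Tes, whose level differed by degree; capitals mark each CG dinucleotide, the site of DNA methylation.
Ubd, chr17:37193642-37193941, plus strand: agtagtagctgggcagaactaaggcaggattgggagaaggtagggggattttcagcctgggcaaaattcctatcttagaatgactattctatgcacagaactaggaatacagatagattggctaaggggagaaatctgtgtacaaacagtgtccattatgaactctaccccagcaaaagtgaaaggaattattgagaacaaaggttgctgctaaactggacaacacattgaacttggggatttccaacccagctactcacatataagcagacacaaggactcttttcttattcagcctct
Acsm4, chr7:119689776-119690075, plus strand: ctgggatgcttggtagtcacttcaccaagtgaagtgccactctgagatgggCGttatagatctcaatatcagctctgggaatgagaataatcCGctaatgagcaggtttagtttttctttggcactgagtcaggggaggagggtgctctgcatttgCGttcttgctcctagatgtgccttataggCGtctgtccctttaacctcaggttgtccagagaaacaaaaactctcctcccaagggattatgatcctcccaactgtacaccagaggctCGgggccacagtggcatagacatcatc
Tes, chr6:17064899-17065198, plus strand: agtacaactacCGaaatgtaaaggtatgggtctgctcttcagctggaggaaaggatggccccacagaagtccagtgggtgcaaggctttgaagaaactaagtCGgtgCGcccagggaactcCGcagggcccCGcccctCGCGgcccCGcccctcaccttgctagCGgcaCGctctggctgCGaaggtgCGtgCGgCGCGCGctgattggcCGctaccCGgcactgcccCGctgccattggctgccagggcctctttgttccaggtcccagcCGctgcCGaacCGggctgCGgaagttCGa
The Ubd window held 0 CG, that of Acsm4 5 and that of Tes 24, and the Pdpn window held 7. Over 32851 promoters of the same length the median was 7, and 94.6% held at least 1. A window with no CG occurred in 5.43% of them, and 24 or more in 20%. Methylation was not measured in these libraries.

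The 6 calls lay close to the threshold. With each of the 7 libraries left out, Pdpn stood at -1.26 to -1.01 and Tes at -0.98 to -0.85. Wdfy1 stood at 1.03 to 1.14 and Cdkn1c at -2.42 to -2.12. The groups separate in these genes, so their direction was fixed in advance. The count of called genes was 0 when PGC-ESC BaxKO 1, 3 or 4 was left out, 12 for line 2 and 4 for line 5. With the level of Rn45s, high in ESC BaxKO 2, as a covariate, Acsm4 was the 1 gene called by edgeR, and the other 5 kept their direction at an adjusted p of 0.113. With ESC BaxHet counted on the ESC side, a setting chosen after the data were seen, 4 genes were called and Pdpn (-0.83, adjusted p 0.699), Tes (-0.62, adjusted p 0.725) and Wdfy1 (0.62, adjusted p 0.725) were not among them, while Cdkn1c was (-2.29, adjusted p 0.0239).

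**Figure D2:**
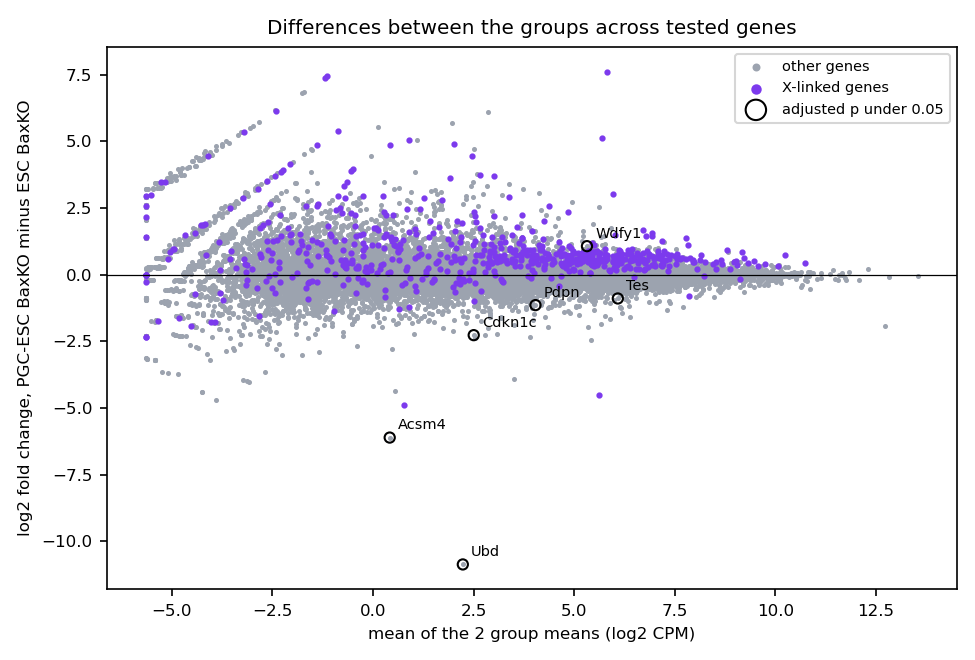
Log2 fold change (PGC-ESC BaxKO minus ESC BaxKO) against the mean of the group means (log2 CPM) for the 16363 tested genes, with X-linked genes in purple and the 6 called genes circled and named; fitted values of Ubd, at 0 in the PGC-ESC lines, are no bound. X-linked genes form a band above 0 at every level, with a median of 0.64, while the median of all genes is -0.001.

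The next 18 genes by p whose groups did not overlap were not called (adjusted p 0.0526 to 0.293), and are given as values. Gfpt2, an enzyme at the entry of the hexosamine pathway, was at 36.7 and 46.9 CPM in the ESC lines and 83.1, 68.4, 102.2, 83.3 and 76.4 CPM in PGC-ESC lines 1 to 5 (0.98 ± 0.19, adjusted p 0.102). Slc1a4, a neutral amino acid transporter, was at 28.5 and 14.8 CPM against 38.3 to 69.4 CPM (1.25 ± 0.28, adjusted p 0.249). H2-Bl, a class I histocompatibility gene whose reads may be shared with its close relatives, was at 2.81 and 8.38 CPM against 15.2 to 46.0 CPM (2.44 ± 0.55, adjusted p 0.276). In all 3 genes the ESC lines were below every PGC-ESC line, and ESC BaxHet stood on the PGC-ESC side. All 3 were also higher in each of lines 1, 3 and 4 than in both of lines 2 and 5, H2-Bl with means of 40.2 and 15.5 CPM.

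X-linked genes made up 5 of these 18, a count made after the values were seen. Of all 16363 tested genes 633 were X-linked, as were 63 of the 921 that separated higher and 8 of the 1057 that separated lower. Utp14a, a ribosome biogenesis factor, was at 64.8 and 52.8 CPM in the ESC lines and 118.9, 98.5, 122.9, 124.4 and 105.4 CPM in PGC-ESC lines 1 to 5 (0.95 ± 0.17, adjusted p 0.0572). Gk, glycerol kinase, was at 16.8 and 12.98 CPM against 40.8, 28.9, 37.4, 39.1 and 27.5 CPM (1.22 ± 0.25, adjusted p 0.173). Both genes were highest in PGC-ESC lines 1, 3 and 4, and lines 2 and 5 still lay above both ESC lines. Zdhhc9, a palmitoyltransferase, had the same order (0.81 ± 0.19, adjusted p 0.289). Xkrx was at 0.071 and 0.093 CPM in the ESC lines and 1.53, 0.999, 1.61, 1.26 and 1.29 CPM in PGC-ESC lines 1 to 5 (3.96 ± 0.70, adjusted p 0.0526), without that division. Mid1, a microtubule-associated ubiquitin ligase, went the other way, with 181.9 and 6.79 CPM in ESC lines 1 and 2 and 2.42 to 6.13 CPM in the PGC-ESC lines (adjusted p 0.238).

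Others were lower in the PGC-ESC lines. Cnn2, an actin-binding calponin, was at 20.8 and 26.5 CPM in the ESC lines and 5.36, 14.4, 6.61, 5.03 and 10.5 CPM in PGC-ESC lines 1 to 5 (-1.49 ± 0.30, adjusted p 0.131 by edgeR), and DESeq2 called it. Synpo2l, an actin-associated protein (-1.85 ± 0.40), Whamm, an activator of actin branching at membranes (-0.76 ± 0.18), and Lsr, a component of tricellular junctions (-1.14 ± 0.25), had adjusted p of 0.226, 0.293 and 0.233. Cnn2, Whamm and Lsr were lower in each of lines 1, 3 and 4 than in both of lines 2 and 5, with means of 5.67 and 12.4 CPM, 30.4 and 45.8 CPM, and 2.81 and 5.01 CPM. Cyp1b1, a cytochrome P450, was at 5.26 and 14.2 CPM against 0.903 to 3.49 CPM (-2.37 ± 0.54, adjusted p 0.289). Gm1943 had 5.30 CPM in ESC BaxKO 1 and 4.87 CPM in ESC BaxHet, against 0.326 CPM in ESC BaxKO 2 and at most 0.275 CPM in the PGC-ESC lines, the same lines that read Ubd and Acsm4.

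At an unadjusted p under 0.05, 951 of all tested genes (5.81%) were higher and 686 (4.19%) lower in the PGC-ESC lines. Of 633 X-linked genes 227 (35.9%) were higher and 3 (0.474%) lower, with a median log2 fold change of 0.64, against 724 (4.61%) higher and 682 (4.34%) lower of 15708 autosomal genes. The groups separated in fewer of the X-linked genes, with 63 (9.95%) higher and 8 (1.26%) lower in every PGC-ESC line, against 5.63% and 6.46% of all tested genes. The count of 227 was 93 without ESC BaxKO 1, 63 without ESC BaxKO 2, 134 without PGC-ESC BaxKO 1, 151 without PGC-ESC BaxKO 3, and 109 with an Rn45s covariate. By the adjusted p, edgeR called 0 X-linked genes and DESeq2 called 10 higher and 1 lower. Among the 7 libraries compared, the difference moved with the Y-linked reads of the lines. The median log2 level of 465 X-linked genes was set against autosomal genes, with each gene centred on the mean of the 2 group means. It was 0.70 (line 1), 0.68 (line 3) and 0.63 (line 4). Lines 2 and 5 had -0.29 and -0.30, and ESC lines 1 and 2 had -0.27 and -0.33. Lines 2 and 5 thus stood with the ESC lines and apart from the other 3 PGC-ESC lines. On the same scale, reference lines with a Y-linked mean of 0 stood below lines 1, 3 and 4. ESC BaxHet had 0.172, and ESC Host 1 to 3 had -0.046, -0.398 and -0.459. PGC-ESC DKO 1 and 2 had -0.363 and -0.4.

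Xist, the RNA that coats an inactive X chromosome, was read at 5.52, 5.33 and 5.00 CPM per library total in PGC-ESC lines 1, 3 and 4, at 3.18 and 3.50 CPM in lines 2 and 5, and at 3.69 and 6.69 CPM in ESC lines 1 and 2. It was low in all 7, and ESC BaxKO 2 had the most. Xist overlaps Tsix on the other strand, which averaged 5.42 CPM over the 7 libraries compared. As the strand setting of the counts is not given, reads of that pair cannot be told apart. Among the libraries with Y-linked reads alone (2 against 2), 10 of 624 X-linked genes were higher and 18 lower at an unadjusted p under 0.05, and their median was 0. In that fit edgeR called 0 genes of any chromosome, with 318 at an unadjusted p under 0.05. For the 4 genes whose groups separated, the direction in this fit was fixed by that separation, so only the sizes are given. Pdpn stood at -1.06, Tes at -0.78, Wdfy1 at 0.90 and Cdkn1c at -1.81.

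**Figure D3:**
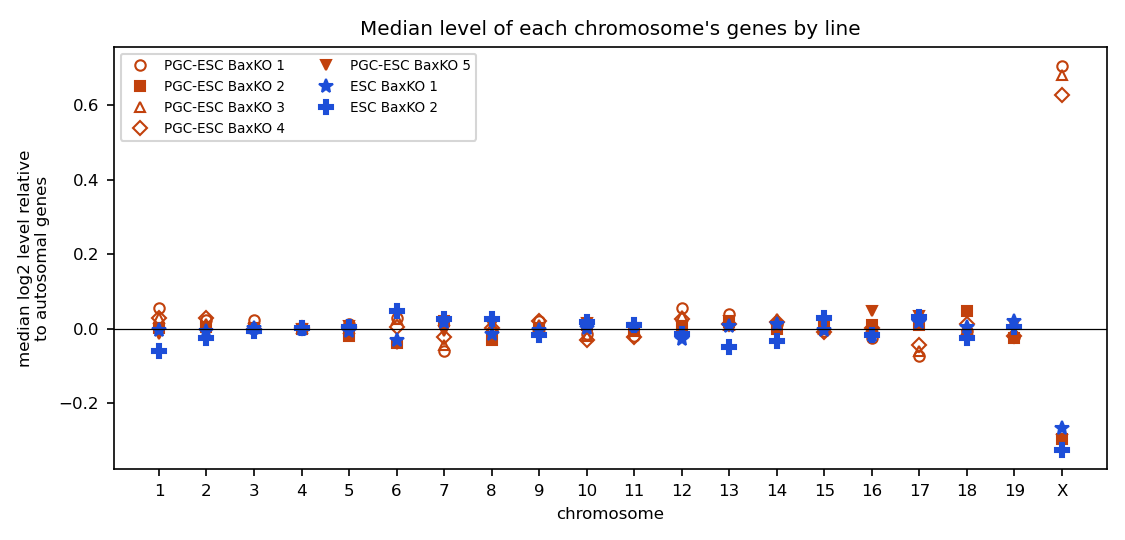
Median log2 level of each chromosome's genes in each line, relative to autosomal genes, with open symbols for PGC-ESC BaxKO 1, 3 and 4, filled orange symbols for 2 and 5, and blue symbols for the ESC BaxKO lines. All autosomes lie near 0 in all lines, and on the X chromosome PGC-ESC BaxKO 1, 3 and 4 stand at 0.63 to 0.70 while the other 4 lines stand at -0.33 to -0.27.

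The division reached beyond the X chromosome. By the median absolute log2 difference over 11982 autosomal genes, the 2 ESC BaxKO lines were 0.207 apart. Each stood 0.133 to 0.221 from PGC-ESC BaxKO 2 and 5, and 0.224 to 0.336 from PGC-ESC BaxKO 1, 3 and 4. Lines 2 and 5 were 0.175 apart, lines 1, 3 and 4 were 0.118 to 0.163 apart, and the distance between those sets was 0.225 to 0.296. The distances from lines 2 and 5 to the ESC lines thus spanned the distance between the ESC lines, and every distance from lines 1, 3 and 4 to the ESC lines was larger than any of these. These distances are descriptions of 7 lines and were not tested. Across all tested genes, 3856 (23.6%) were higher and 4384 (26.8%) lower in each of lines 1, 3 and 4 than in both of lines 2 and 5. Of the 633 X-linked genes 497 (78.5%) were higher.

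Genes were also described by lists chosen for the tissue, beside the median of all tested genes (-0.001). The label ESC was checked against pluripotency genes. Pou5f1, the core pluripotency factor, was at 1247 and 1162 CPM in the ESC lines and 1254, 1141, 1275, 1270 and 1276 CPM in PGC-ESC lines 1 to 5 (0.05 ± 0.21, adjusted p 0.966). Nanog was at 807.5 and 638.5 CPM against 698.1 to 1117 CPM, and the naive factor Tfcp2l1 at 1104 and 1052 CPM against 1057 to 1330 CPM. The groups overlapped in all 3. None of 10 core or 15 naive pluripotency genes was called by edgeR or DESeq2, with 1 core gene higher and 1 lower and 1 naive gene higher at an unadjusted p under 0.05, and medians of 0.035 and 0.023. Those were Dppa2, at 32.2 and 34.8 CPM in the ESC lines and 123.8, 29.0, 102.8, 82.4 and 38.5 CPM in lines 1 to 5, Utf1, and the germ cell and naive regulator Prdm14. Dppa2 was high in lines 1, 3 and 4 and at the ESC level in 2 and 5.

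Of 16 primordial germ cell markers none was called by either tool, 1 was higher and 0 lower at an unadjusted p under 0.05, and their median was -0.07. Itgb3, an integrin used to sort PGCs in culture, was at 2.31 and 4.05 CPM in the ESC lines and 23.2, 3.93, 13.2, 12.8 and 4.61 CPM in PGC-ESC lines 1 to 5 (1.86 ± 0.57, adjusted p 0.463). Tfap2c and Kit, abundant markers shared with ESCs, were at 78.0 to 104.2 and 361.7 to 398.1 CPM in the ESC lines and at 85.5 to 167.4 and 272.5 to 426.3 CPM in the PGC-ESC lines. Again lines 1, 3 and 4 held the high values of Itgb3 and Tfap2c, and lines 2 and 5 overlapped the ESC lines. Of 11 formative and primed epiblast genes none was called by either tool, with 2 higher and 0 lower at an unadjusted p under 0.05 (median 0.229). Otx2, a driver of the exit from the naive state, was at 3.91 and 2.14 CPM in the ESC lines and 5.22 to 8.61 CPM in the PGC-ESC lines, with no overlap (1.05 ± 0.68, adjusted p 0.629). The 2 higher genes were Sox3, at 1.92 and 1.86 CPM against 13.6, 0.787, 8.82, 10.9 and 2.67 CPM, and Pou3f1. Pou3f1 was at 2.45 and 2.51 CPM against 5.30, 2.24, 5.70, 5.34 and 2.93 CPM. In both, lines 1, 3 and 4 were highest and line 2 was below both ESC lines. Of the 11 genes 7 were positive, and Dnmt3b was at -0.42 ± 0.28.

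None of 13 primitive endoderm, 11 trophoblast, 8 mesendoderm and 9 neuroectoderm genes tested was called by edgeR or DESeq2. At an unadjusted p under 0.05 there were 0 primitive endoderm genes, 1 lower trophoblast gene, 1 lower mesendoderm gene and 1 higher neuroectoderm gene, and the medians in that order were 0.021, -0.319, 0.041 and -0.032. Krt8, a keratin of trophoblast and other epithelia, was at 15.3 and 19.6 CPM in the ESC lines and 1.51 to 12.4 CPM in the PGC-ESC lines (-1.37 ± 0.61, adjusted p 0.485), with no overlap. Other trophoblast genes did not follow Krt8, and 4 of the 11 were positive. Gata3 was at 0.320 and 1.49 CPM against 0.363 to 7.25 CPM (1.84 ± 0.96). Cdx2 was at 17.0 and 26.8 CPM against 5.96 to 44.7 CPM (-0.08 ± 0.77), and both overlapped. Of 9 fibroblast and feeder genes tested none was called by either tool, and 2 were higher and 0 lower at an unadjusted p under 0.05 (median 0.619). Col1a1, the fibroblast collagen, was at 0.854 and 0.791 CPM in the ESC lines, 0.847 and 0.646 CPM in lines 2 and 5, and 11.3, 5.95 and 5.66 CPM in lines 1, 3 and 4 (2.55 ± 0.89, adjusted p 0.463). Other members went the other way, with Col1a2 at -1.05 ± 0.59, Fn1 at -0.38 ± 0.32 and Vim at -0.26 ± 0.37, and 5 of the 9 were positive. The defining fibroblast genes Col3a1, Postn and Lum had too few reads to be tested. The summed level of the list was 1288 to 2621 CPM in the PGC-ESC lines and 1995 to 2642 CPM in the ESC lines, most of it from Fn1 and Vim, which ESCs express. The part of other cells in the results was not tested.

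Germline genes silenced by promoter methylation, used as readouts of demethylation, had the largest median among lists of at least 10 tested genes. The median of 20 was 0.983, with 17 positive, against -0.001 for all tested genes, yet none was called by edgeR or DESeq2, 3 were higher and 0 lower at an unadjusted p under 0.05, and in none of the 20 did the groups separate. Hormad1, a meiotic chromosome axis protein, was at 20.6 and 15.9 CPM in the ESC lines and 80.1, 36.6, 82.6, 65.9 and 18.1 CPM in PGC-ESC lines 1 to 5 (1.63 ± 0.56, adjusted p 0.463). Sycp1, of the synaptonemal complex, was at 4.80 and 3.35 CPM against 15.5, 4.99, 9.43, 8.95 and 4.48 CPM (1.08 ± 0.46, adjusted p 0.478). Mael, of the piRNA pathway, was at 2.06 and 1.40 CPM against 6.42, 1.73, 5.09, 3.30 and 1.81 CPM (1.06 ± 0.46, adjusted p 0.48). All 3 were high in lines 1, 3 and 4, with line 2 of Hormad1 between. Between the PGC-ESC lines themselves, 13 of the 20 (65.0%) were higher in every line without Y-linked reads than in both with them, where 23.6% of all genes were. The list holds 4 X-linked genes, Tex11, Tex13b, Taf7l and Mageb4, all among the 13, and 78.5% of X-linked genes had this pattern. Of the 16 autosomal members 9 (56.2%) had it, against 21.4% of autosomal genes.

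Genes of the methylation machinery were mixed. Of 13 tested, none was called by either tool, 1 was higher and 1 lower at an unadjusted p under 0.05, and the median was -0.034. Dnmt3l, the cofactor of de novo methylation, was at 39.6 and 90.3 CPM in the ESC lines and 5.89, 30.02, 7.71, 12.8 and 25.9 CPM in PGC-ESC lines 1 to 5 (-1.97 ± 0.59, adjusted p 0.463). The groups did not overlap, and lines 1, 3 and 4 were lowest. Tet3, which oxidises methylated cytosine, was at 6.22 and 6.19 CPM against 24.6, 10.2, 21.6, 22.3 and 5.08 CPM (1.43 ± 0.59, adjusted p 0.476). Uhrf1, needed to copy methylation at replication, was at 753.5 and 772.4 CPM against 677.1 to 865.5 CPM and overlapped.

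Of 21 maternally expressed imprinted genes tested, 1 was called lower, Cdkn1c (0.0306% of all tested genes were), and the median was -0.323. At an unadjusted p under 0.05, 3 were lower and 2 higher. The groups separated, with PGC-ESC BaxKO lower, in 5 of the 21, against 6.46% of all tested genes. These 5, named after their values were seen, were Cdkn1c, Slc22a18, Phlda2, Nap1l4 and Osbpl5, and they lie together on distal chromosome 7 between 143458339 and 143756985, in the domain controlled from the Kcnq1 locus. Phlda2, a placental growth regulator (143501545 to 143503150), was at 15.8 and 12.2 CPM in the ESC lines and 1.65, 9.62, 1.51, 0.432 and 1.38 CPM in PGC-ESC lines 1 to 5 (-2.22 ± 0.65, adjusted p 0.463). Slc22a18, a transporter gene (143473736 to 143499334), was at 5.73 and 7.21 CPM against 0.177, 5.05, 0.202, 0.471 and 1.38 CPM (-2.09 ± 0.83, adjusted p 0.468). In both, line 2 stood near the ESC lines and the other 4 PGC-ESC lines were low, line 5 with Y-linked reads among them.

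The remaining members of that domain differed less. Nap1l4, a histone chaperone, was at 219 and 228 CPM in the ESC lines and 191 to 213 CPM in the PGC-ESC lines (-0.16 ± 0.10, adjusted p 0.607), and Osbpl5 at 0.889 and 0.884 CPM against 0.353 to 0.696 CPM (-0.75 ± 0.40, adjusted p 0.556). Ascl2, Cd81 and Tssc4, nearer to the centromere, overlapped between the groups. Kcnq1ot1, the paternally expressed noncoding RNA that silences the domain in cis, was at 13.6 and 9.91 CPM in the ESC lines and 19.1, 12.9, 23.6, 23.6 and 23.0 CPM in PGC-ESC lines 1 to 5 (0.79 ± 0.58, adjusted p 0.659). It was lowest of the PGC-ESC lines in line 2, the line with the highest Phlda2 and Slc22a18. Cdkn1c was at 2.63 CPM in line 2 and 2.75 CPM in line 5, where Kcnq1ot1 was at 12.9 and 23.0 CPM. A link between Kcnq1ot1 and these genes was not tested. Phlda2 and Slc22a18 in ESC BaxHet were at 18.7 and 6.70 CPM, with the ESC BaxKO lines.

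Other imprinted clusters divided the PGC-ESC lines instead. Meg3, a maternally expressed noncoding RNA of chromosome 12, was at 431.5 and 482.3 CPM in the ESC lines, 364.7 and 622.3 CPM in lines 2 and 5, and 60.4, 52.9 and 170.0 CPM in lines 1, 3 and 4 (adjusted p 0.69). Rian, transcribed from the same cluster, was at 354.2 and 352.5 CPM against 332.8 and 586.9 CPM and 65.7, 58.5 and 150.2 CPM in the same order of lines. In both genes line 2 was below both ESC lines and line 5 above them, so the groups overlapped. Of 23 paternally expressed genes tested none was called by either tool (median 0.353), 4 were higher and 1 lower at an unadjusted p under 0.05. Ndn, a paternally expressed MAGE-family gene, was at 3.52 and 4.47 CPM in the ESC lines, 2.60 and 4.61 CPM in lines 2 and 5, and 23.2, 22.7 and 16.9 CPM in lines 1, 3 and 4. H13, a signal peptide peptidase with isoforms from both alleles, was at 32.3 and 38.5 CPM against 22.2, 20.8, 21.8, 30.9 and 21.2 CPM (-0.60 ± 0.16, adjusted p 0.436). Mcts2, which lies within H13 on the same strand, was at 16.3 and 12.8 CPM against 17.7 to 21.3 CPM (0.41 ± 0.19, adjusted p 0.486).

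**Figure D4:**
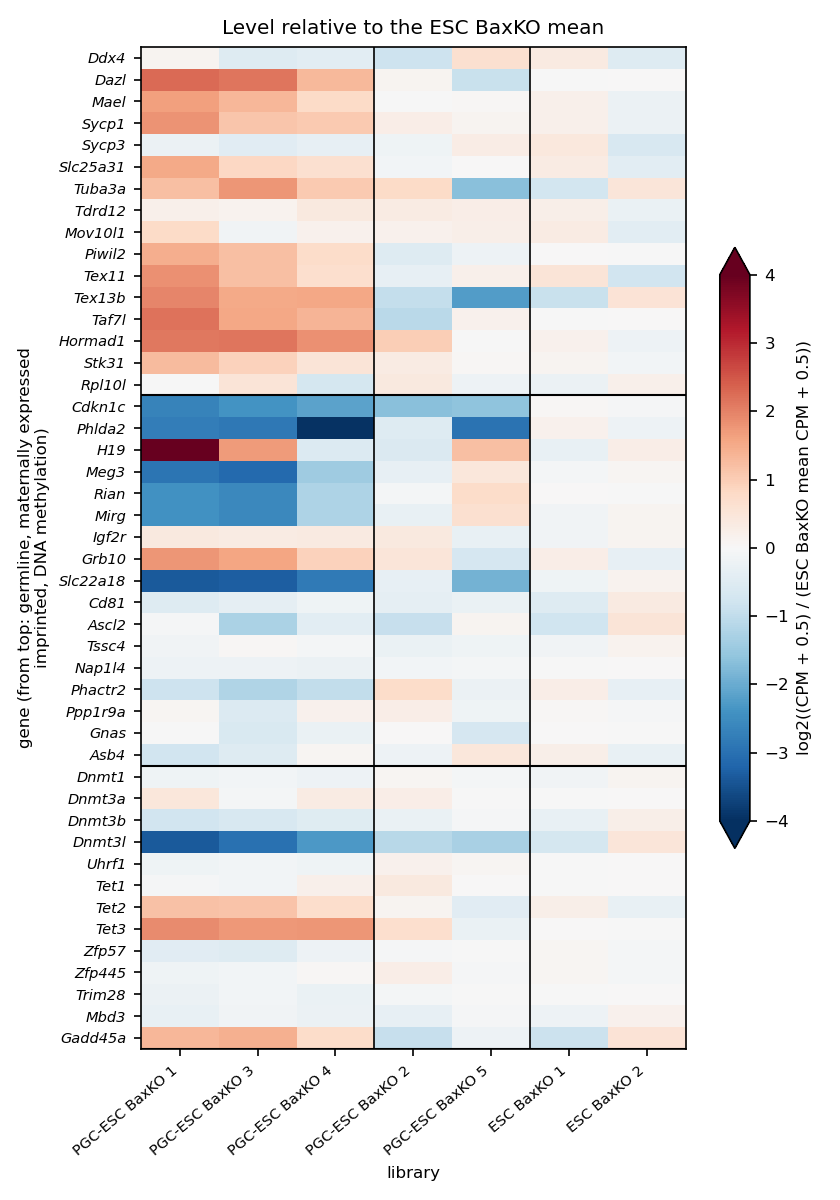
Log2 level relative to the ESC BaxKO mean, with 0.5 CPM added, for 16 germline, 17 maternally expressed imprinted and 13 DNA methylation genes in each line; colours stop at 4 in either direction. The left block (PGC-ESC BaxKO 1, 3 and 4, without Y-linked reads) is red for germline genes such as Hormad1, Mael and Sycp1 and blue for Meg3, Rian and Dnmt3l, and Cdkn1c is blue in all 5 PGC-ESC lines. In the middle block (2 and 5) Meg3 and Rian are close to the ESC lines on the right, while Phlda2 and Slc22a18 are blue in line 5.

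X-linked regulators of pluripotent signalling, all on the chromosome described above, divided the PGC-ESC lines as X-linked genes in general did. Of 12 tested none was called by edgeR or DESeq2, 6 were higher at an unadjusted p under 0.05, where 35.9% of all X-linked genes were, and the median was 0.52, against 0.64. Dusp9, which dephosphorylates ERK, was at 11.1 and 16.1 CPM in the ESC lines, 13.2 and 16.1 CPM in lines 2 and 5, and 214.7, 208.6 and 103.0 CPM in lines 1, 3 and 4 (3.03 ± 0.96, adjusted p 0.463). All 12 were higher in each of lines 1, 3 and 4 than in both of lines 2 and 5, as were 78.5% of the 633 X-linked genes tested.

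Readouts of the pathways that the culture inhibitors and LIF act on gave no call by either tool. Of 15 targets of FGF and ERK, 3 were lower and 0 higher at an unadjusted p under 0.05 (median -0.026). Ier3, an immediate early gene, was at 6.08 and 3.30 CPM in the ESC lines and 1.16 to 3.10 CPM in the PGC-ESC lines (-1.14 ± 0.34, adjusted p 0.463), and the receptor tyrosine kinase antagonist Spry2 at 99.8 and 111.6 CPM against 50.7 to 88.3 CPM (-0.50 ± 0.22, adjusted p 0.485). Neither gene overlapped between the groups. Of 10 genes of the LIF and STAT3 pathway 3 were lower and 0 higher by the same measure (median -0.163), among them Socs3, the feedback inhibitor of the receptor, at 114.8 and 134.4 CPM against 69.0 to 117.5 CPM (-0.48 ± 0.18, adjusted p 0.463).

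Cortex and adhesion genes held 2 of the called genes. Of 20 actin, adhesion and podoplanin partner genes, a list written with Pdpn and Tes known to be called, 2 were called lower (0.0306% of all tested genes were) and 0 higher, 6 were lower at an unadjusted p under 0.05 (4.19% of all were), and the median was -0.219. The list was chosen around those calls, so its counts are no independent evidence of direction. Pdpn binds ezrin, moesin and radixin, and their genes Ezr (0.02 ± 0.43), Msn (-0.06 ± 0.24) and Rdx (0.30 ± 0.17) overlapped between the groups. Enah, a partner of testin at focal adhesions, was at 441.9 and 441.8 CPM against 396.2 to 457.5 CPM (-0.07 ± 0.12, adjusted p 0.879).

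Of 7 cyclin-dependent kinase inhibitors Cdkn1c was the 1 called (0.0306% of all tested genes were called lower). At an unadjusted p under 0.05, 2 were lower and 0 higher, and the median was -0.336. This list too was chosen with earlier results of these data known. Cdkn1a, the p53 target p21, was at 276 and 339 CPM in the ESC lines and 194.4, 257.7, 181.4, 252.0 and 259.2 CPM in PGC-ESC lines 1 to 5 (-0.43 ± 0.20, adjusted p 0.499). Every PGC-ESC line was below both ESC lines. Of 13 p53 targets none was called by either tool, with 1 lower and 0 higher at an unadjusted p under 0.05 (median 0.004), and Trp53 itself was at 484.9 and 471.6 CPM against 414.1 to 503.9 CPM.

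Of 15 genes of the BCL-2 family, to which Bax belongs, none was called by either tool, 1 was higher and 2 lower at an unadjusted p under 0.05 (median -0.094). Bak1, the other pore-forming effector, was at 103.3 and 87.7 CPM in the ESC lines and 129.7, 103.4, 143.1, 127.0 and 110.5 CPM in PGC-ESC lines 1 to 5, just above both ESC lines in every PGC-ESC line (0.36 ± 0.19, adjusted p 0.531). Hrk, a BH3-only activator, was at 3.24 and 0.931 CPM against 2.93 to 8.25 CPM (1.46 ± 0.46, adjusted p 0.463). Mcl1, an antiapoptotic member, was at 377.3 and 308.7 CPM against 355.6 to 403.5 CPM and overlapped. The 2 lower genes were Bcl2 (-1.23 ± 0.43, adjusted p 0.463) and Bik (-0.99 ± 0.42, adjusted p 0.477). Both were under 1 CPM in all 7 libraries, and their groups did not overlap.

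Of 17 genes of NF-kB and interferon signalling tested, Ubd was the 1 called (0.0306% of all tested genes were called lower), and the median was -0.282. Rela, the p65 subunit of NF-kB, was at 38.6 and 42.5 CPM in the ESC lines and 21.4, 30.4, 21.1, 25.0 and 38.2 CPM in PGC-ESC lines 1 to 5 (-0.57 ± 0.18, adjusted p 0.463), with line 5 just under the ESC lines. Oas1a, an interferon-induced gene, was at 37.1 and 34.5 CPM against 77.1, 35.9, 72.0, 84.1 and 29.7 CPM. Of 10 endosome and toll-like receptor adaptor genes, Wdfy1 was the 1 called (median 0.035), where 0.00611% of all tested genes were called higher. Hgs and Rab5a, which also act on the early endosome, overlapped. The lists that hold Ubd and Wdfy1 were chosen with earlier results of these data known, so these calls are no independent evidence about either list. Of 17 glycolysis genes none was called by either tool, and 0 had an unadjusted p under 0.05 (median -0.20). Gpi1 was at 952.7 and 963.1 CPM in the ESC lines and 950.8 CPM in line 5, 809.6 CPM in line 2, and 569.6 to 685.0 CPM in lines 1, 3 and 4 (-0.40 ± 0.20, adjusted p 0.519). Of 14 two-cell-like genes tested, none was called by either tool and 0 had an unadjusted p under 0.05 (median 0.721). Dux had at most 0.118 CPM and Zscan4c 0.393 to 2.88 CPM. DESeq2 called 1 list gene beyond the 6, Cnn2, and 72 genes in all, 48 higher and 24 lower.

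Some genes varied widely between the PGC-ESC lines. Olig2, a neural lineage factor, was at 30.8 and 40.4 CPM in PGC-ESC lines 2 and 3 and at 0.059 to 0.372 CPM in the other 5 lines, and its neighbour Olig1 was on in the same lines, at 12.8 and 24.6 CPM. ESC Host had 85.6 ± 39.2 CPM of Olig2 (n = 4), so the gene was on in embryo-derived lines of the other strain label. Gm364, an X-linked gene, was at 161.1, 172.3 and 223.2 CPM in lines 1, 3 and 4, 2.42 and 0.646 CPM in lines 2 and 5, and 0.534 and 0.605 CPM in the ESC lines. The X-linked 1700013H16Rik and Gm9 had the same division.

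The 2 ESC lines also parted. ESC BaxKO 1 lacked genes that ESC BaxKO 2 shared with the PGC-ESC lines. Myof, a membrane repair protein of the ferlin family, was at 3.81 CPM in ESC BaxKO 1, 101.2 CPM in ESC BaxKO 2 and 57.5 to 139.5 CPM in the PGC-ESC lines. Pkd2l1, a cation channel, was at 0.925 CPM against 23.1 CPM and 19.6 to 42.3 CPM, and the pseudogene Rps18-ps4, whose reads may come from its parent gene, at 0.534 CPM against 90.3 CPM and 65.7 to 74.4 CPM. Alcam, a cell adhesion molecule, was on in ESC BaxKO 2 alone, at 40.9 CPM against 1.89 CPM in ESC BaxKO 1 and 1.06 to 2.03 CPM in the PGC-ESC lines (adjusted p 0.0526). With 2 lines on the ESC side, a gene on in 1 of them moves the group mean, as in Ubd, Acsm4, Gm1943, Mid1 and Alcam.

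The ESC BaxHet line offers a further embryo-derived line of the same strain label, as 1 library with no replicate. Of the 22 called or next genes whose groups did not overlap, it stood at or beyond the nearest PGC-ESC line in 11, between the groups in 7, and at or beyond the nearest ESC BaxKO line in 4, which were Cdkn1c, Gm1943, Lsr and Mid1. Over all 1978 tested genes whose groups did not overlap, it stood on the PGC-ESC side in 1539 (77.8%), between in 177 and on the ESC side in 262 (13.2%). These genes were chosen because the 2 ESC BaxKO lines lay at one end. By that choice alone, a further line falls more often on the side of the 5 PGC-ESC lines. The shares therefore do not show which group this embryo-derived line, which has no Y-linked reads, is like. Cdkn1c was thus the called gene in which all 3 embryo-derived Bax lines (9.17 to 9.90 CPM) stood apart from all 5 PGC-ESC lines (1.06 to 2.75 CPM).

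A second comparison of PGC-ESC with ESC lines shares no library with the first: PGC-ESC DKO (n = 3) against ESC Host (n = 4), where edgeR called 19 of 16363 genes (0.116%). There the DKO genotype and EGFP expression differ along with origin, so those cannot be told apart. Wdfy1 was higher there too, at 31.7 ± 1.77 CPM (n = 3) against 12.96 ± 2.76 CPM (n = 4), by 1.29 ± 0.15 (adjusted p 0.00018), and its difference between the strain labels was -0.22 ± 0.22 (adjusted p 0.77). Cdkn1c was at 4.26 ± 1.42 CPM (n = 3) against 8.56 ± 4.08 CPM (n = 4), -1.02 ± 0.37 and not called (adjusted p 0.58). Pdpn (-0.28 ± 0.17) and Tes (0.26 ± 0.14) were not called. For Tes the difference between the labels, of 13 such genes (0.0794%), was itself called (-1.15 ± 0.21, adjusted p 0.049), and for Pdpn (-0.86 ± 0.25, adjusted p 0.36) and Cdkn1c (-1.25 ± 0.53, adjusted p 0.47) it was not. Ubd was on in every Host and DKO line, at 25.1 ± 6.52 CPM (n = 4) and 40.1 ± 13.1 CPM (n = 3).

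**Figure D5:**
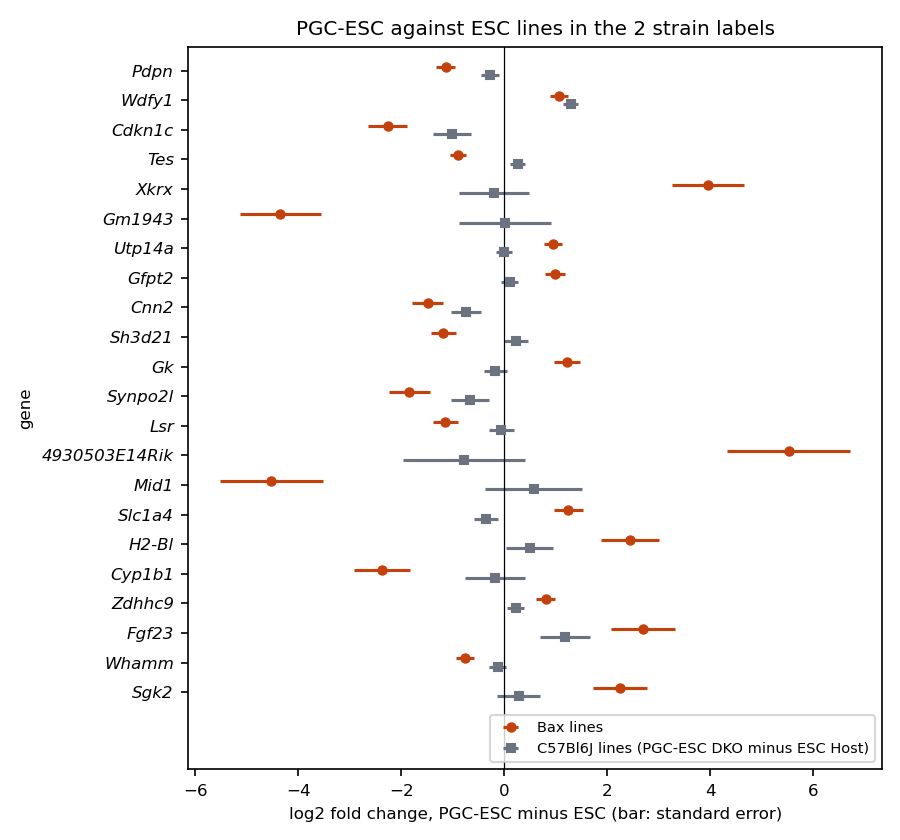
Log2 fold change of PGC-ESC minus ESC with its standard error for the 22 genes whose groups did not overlap, in the Bax lines (circles) and in the C57Bl6J lines (squares, PGC-ESC DKO minus ESC Host). The genes were chosen for their difference in the Bax lines, where values are therefore far from 0; among the squares Wdfy1 is at 1.29, Cdkn1c at -1.02, and Pdpn and Tes are at -0.28 and 0.26.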

How the data were processed

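Poly(A) RNA-seq of 20 mouse libraries was deposited by the authors as 1 table of whole-number read counts per gene (21361 genes). Per the submitters' processing notes, STAR 2.7.7a and build mm10 were used; no source used here gives the counting tool, its strand setting or the annotation. The members and gene lists were chosen with earlier results of these data known. The test was edgeR's quasi-likelihood F test (version 4.0.16, R 4.3.3) on TMM-scaled counts, with its default filter on low counts (16363 genes tested, 4998 not) and 1 coefficient for each of 7 groups over all 20 libraries (13 residual degrees of freedom), so ESC BaxKO, with 2 lines, shares the spread of all groups. These groups include EpiLC Host and EpiLC DKO, libraries of epiblast-like cells, which help set that spread. P-values are two-sided, adjusted by the Benjamini-Hochberg method over all tested genes, and called under 0.05. CPM are TMM-scaled unless given per library total. Gene positions are from GENCODE M21 (GRCm38) by symbol, with 20725 genes matched, and 611 more by RefSeq. The test was checked on simulated data. Alternatives were RLE scaling, DESeq2 1.42.0, no filter, smaller fits, a replicate block, Y-linked and Rn45s covariates, and leaving out each library. Genes were named by rule: Bax, EGFP, called genes, the next by p whose groups did not overlap (mean of at least 1 CPM in a group, 24 in all), the 3 smallest p and 2 most abundant of each list, and the 8 most variable within each group (at least 5 CPM). Other genes named were chosen after their values were seen: Ezr, Msn, Rdx, Ascl2, Cd81, Tssc4, Nap1l4, Osbpl5 and Kcnq1ot1. The listed mouse genes Col3a1, Postn and Lum were not tested. Library totals limit precision for genes with few counts.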

Additional observations from a re-analysis of the deposited data

Results flagged for a closer look

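Of 131 named genes with a mean of at least 1 CPM in PGC-ESC BaxKO, 7 had 1 line whose gap to the others was over 0.71 of the group's range; chance flags about 1 in 20 groups. In PGC-ESC BaxKO 2, Tes was at 58.65 CPM against 43.6 to 47.5 CPM in the other 4 lines, and Pou5f1 at 1141 CPM against 1254 to 1276 CPM. The same line had 9.62 CPM of Phlda2 against 0.432 to 1.65 CPM, and 5.05 CPM of Slc22a18 against 0.177 to 1.38 CPM. In PGC-ESC BaxKO 4, H13 was at 30.9 CPM against 20.8 to 22.2 CPM, and Eif1a at 289.8 CPM against 267.1 to 271.6 CPM. Rn45s was at 5082 CPM in PGC-ESC BaxKO 5 against 2024 to 2686 CPM in the others.

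The difference of PGC-ESC from ESC lines was itself different between the Bax lines and the C57Bl6J lines for EGFP (-16.34, adjusted p 2.9e-11), which the Host lines lack, and for Tes (-1.15, adjusted p 0.049), both by edgeR with Benjamini-Hochberg adjustment.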

How the results depend on the processing

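For PGC-ESC BaxKO against ESC BaxKO the count of called genes was 6. It was 10 at an adjusted p under 0.1 and 10 with no filter, 72 with DESeq2, 1 with an Rn45s covariate, and 0 with RLE scaling (1665 at an unadjusted p under 0.05), in the 15 ESC and PGC-ESC libraries (1154), in the 7 compared libraries alone (1060), with a Y-linked covariate (593) and in libraries with Y-linked reads (318), all by edgeR except DESeq2. Leaving out 1 library gave 0 to 12. With X and Y genes left out it was 6. The replicate block gave 5 calls, 2 of them shared (Wdfy1 and Cdkn1c). The numbers name different lines in each group. Own-number deviations correlated at 0.049 and -0.015. With 2 ESC lines, whose deviations mirror each other, these values cannot show whether lines are paired. For the difference between strain labels the count was 13, with 74 by DESeq2 and 9 to 18 with 1 library left out. X-linked genes higher at an unadjusted p under 0.05 numbered 227, and 87 in the 7 libraries alone, 29 with a Y-linked covariate, 10 in libraries with Y-linked reads, 109 with an Rn45s covariate and 128 with ESC BaxHet added, and without 1 library 63 (ESC BaxKO 2), 93 (ESC BaxKO 1), 134, 151 and 153 (PGC-ESC BaxKO 1, 3 and 4), 320 and 330 (5 and 2); these alternatives were chosen after the data were seen. No called gene reversed. For the 4 whose groups separated, leaving out libraries could not reverse the direction, so this is no evidence for them. Ubd, with no read left on either side without ESC BaxKO 1, was counted there as not reversed. Over 2581 alternatives for 145 named genes not called, 36 passed the threshold, 213 moved by more than 1 standard error and 0 changed sign with a call in either fit. Without a call, 107 alternatives in 47 of these genes changed sign, 38 of them by more than 1 standard error. Smaller fits test with fewer libraries; otherwise the cause was not tested.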
